A study of Mus musculus with 4 samples.

Results

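Somatostatin GABAergic neurons were taken here as the 50 nuclei, of 31109 barcodes in 4 single-nucleus RNA libraries from the hypothalamic paraventricular nucleus (PVN) of mice, that held transcripts both of somatostatin (Sst) and of the machinery that makes and packs the inhibitory transmitter GABA. A member had at least 2000 unique molecular identifiers (UMIs, each standing for a captured RNA molecule), at least 500 detected genes, at most 5% mitochondrial UMIs and at least 5 of 7 neuronal genes (Snap25, Syt1, Rbfox3, Meg3, Snhg11, Celf4 and Grin2b). It also had at least 3 UMIs of Gad1, Gad2 and Slc32a1 together, at least 5 UMIs of Sst and at most 1 of Slc17a6, the vesicular glutamate transporter of hypothalamic excitatory neurons. Nuclei with 5 or more UMIs of Agrp, Npy and Pomc together, 3 or more of Th, or 10 or more of Oxt and Avp together were left out. The members numbered 21 and 19 in the ZT20 libraries, against 5 and 5 in the ZT8 libraries. The nuclei were thus chosen by measured UMIs of these genes, and the values of these genes are given as a description with no test.

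The ZT20 group and the ZT8 group had 2 libraries each. Each library pooled 5 micropunched PVNs of male C57Bl6 mice aged 10 weeks by the sample labels (the design text gives a range of ages from 10 weeks up), taken at zeitgeber time 20 (dark phase) or 8 (light phase), hours counted from lights on; the labels name no other treatment or allele. Nuclei were freed on a sucrose gradient and read with droplet sequencing of transcript 3' ends, so the pools hold no value per mouse, and the labels do not say whether a time's libraries stem from separate mice. P-values therefore measure only the spread between libraries, part of which may be technical.

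Somatostatin is a cyclic peptide that lowers hormone release and neuronal firing through its receptors, which couple to inhibitory G proteins. In the anterior periventricular hypothalamus, next to the PVN, neurosecretory somatostatin neurons send axons to the median eminence and restrain growth hormone release. Other hypothalamic and forebrain somatostatin neurons release GABA locally or over longer distances. GABA is made by the glutamate decarboxylases Gad1 and Gad2 and loaded into vesicles by Slc32a1.

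The ZT20 libraries held 8320 and 9413 barcodes with 63558166 and 61933800 UMIs, and the ZT8 libraries 6453 and 6923 barcodes with 57970649 and 69223344 UMIs. Kept neurons numbered 3959 and 3883 at ZT20, against 3369 and 3822 at ZT8. GABAergic nuclei by the same rule without the Sst limit numbered 863 and 870 at ZT20, against 437 and 498 at ZT8. Members held 271053 and 284321 UMIs in the ZT20 libraries, against 94349 and 90167 in the ZT8 libraries. Their median depth was 12327 and 13557 UMIs per nucleus at ZT20, against 13260 and 15660 at ZT8. Pairs of libraries shared 10 to 25 barcode sequences, and 1 of these belonged to a member.

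The Sst gene lies on the minus strand of chromosome 16 at chr16:23889573-23890958 (mm10, GENCODE M21). Its promoter is known for a cyclic AMP response element, the palindrome TGACGTCA, through which the factor CREB drives transcription. The element is shown because it belongs to the gene that defines these nuclei. The 30 bases around it, from RefSeq on GRCm38.p6 at chr16:23890874-23890903 on the minus strand, with the element in capitals, are given 5′ to 3′.
Sst promoter element: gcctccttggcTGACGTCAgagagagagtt
Its first base lies 48 bases before the RefSeq start, but inside the gene as GENCODE draws it, whose start lies further upstream. The same 8 letters, which read alike on both strands, occurred in 588 of 32851 RefSeq promoters (1.79%) taken from 250 bases before to 50 bases after the start.

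Sst transcripts were few in most members and abundant in a handful. Members of ZT20 replicate 1 held 5 to 31 Sst UMIs with a median of 11, and those of ZT20 replicate 2 held 5 to 48 with a median of 10. Members of ZT8 replicate 1 held 7, 7, 10, 13 and 22 Sst UMIs, and those of ZT8 replicate 2 held 6, 7, 9, 11 and 15. The ranges of the times overlapped, and the highest single values were at ZT20. Summed over the members of a library and divided by their total UMIs (as CPM, counts per 1000000 UMIs), Sst stood at 967 and 841 CPM in the ZT20 libraries, against 625 and 532 CPM in the ZT8 libraries. These levels come after a minimum of 5 UMIs. In all GABAergic nuclei, 1985 had no Sst UMI, 464 had 1, 118 had 2, 51 had 3 or 4, 4 had exactly 5, 18 had 6 to 9, 22 had 10 to 19 and 6 had 20 or more. The distribution thus had no gap at the minimum: 51 nuclei lay just below it and 4 on it.

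**Figure D1:**
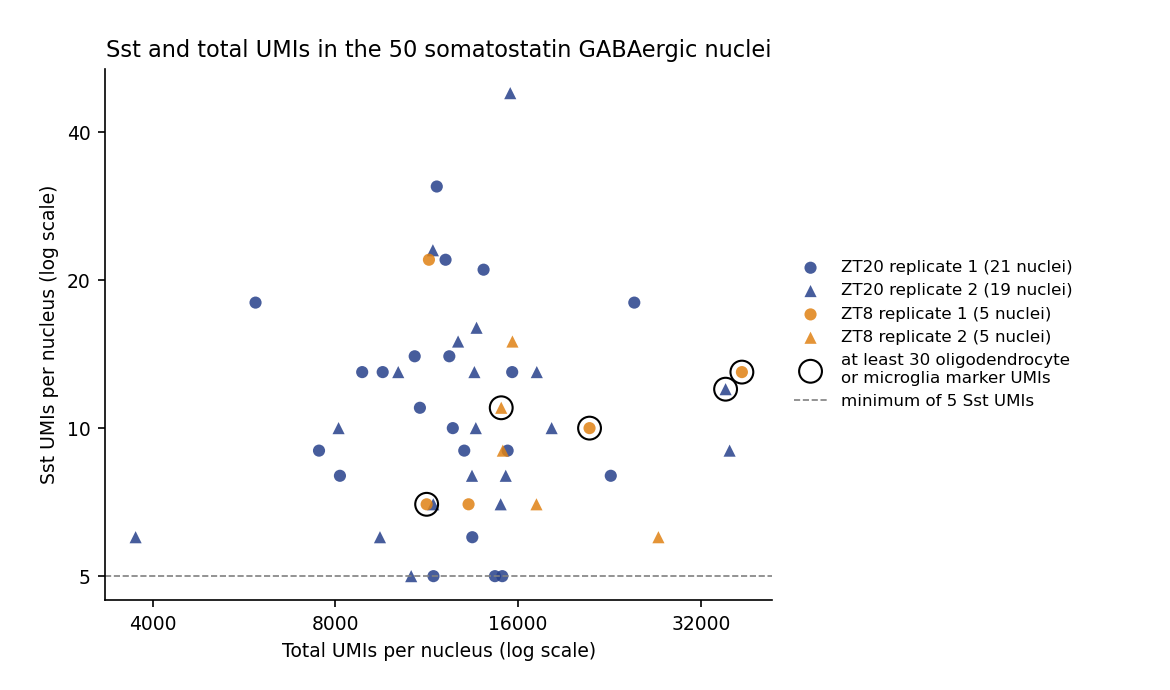
Sst UMIs (y axis, log scale) against all UMIs (x axis, log scale) of each of the 50 members, coloured by time and shaped by replicate, with the minimum of 5 Sst UMIs as a dashed line. Sst UMIs run from 5 to 48 and total UMIs from 3751 to 37388, and the 5 ringed nuclei carry at least 30 UMIs of oligodendrocyte or microglia markers.

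Free RNA in the droplets also holds Sst, and held more of it at ZT20. A Sst UMI was found in 17.4 and 18.3% of oligodendrocyte nuclei at ZT20, against 5.71 and 5.81% at ZT8, at median depths of 2813.5 and 2626 UMIs at ZT20 and 2641 and 2513 at ZT8. Oligodendrocytes should lack the gene, so a single Sst UMI in a nucleus is read as background, and the part of free RNA in the member counts was not tested.

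Of 176 kept neurons with at least 5 Sst UMIs (68 and 74 at ZT20, 16 and 18 at ZT8), the members were a minority. The limit on Slc17a6 was missed by 97 of them and the minimum of GABA genes by 77. The limit on Agrp, Npy and Pomc was missed by 18, that on Oxt and Avp by 2 and that on Th by 0, and 65 missed more than 1 limit. Neurons with high Sst included 54 with at least 2 Slc17a6 UMIs and fewer than 3 GABA gene UMIs (19 and 24 at ZT20, 2 and 9 at ZT8), and 43 that reached both 2 Slc17a6 UMIs and 3 GABA gene UMIs. Sst was therefore carried by nuclei of glutamatergic as well as GABAergic profile in these punches.

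The GABA genes, of which the rule required 3 UMIs together, are described here and do not test the label. Gad2 was found in 46 of 50 members, Gad1 in 42 and Slc32a1 in 36, and 28 members held all 3. Members had a median of 8.5 UMIs of these genes together, 6 members had the minimum of 3, and 36 had at least 6. Gad2 stood at 439 and 447 CPM in the ZT20 libraries, against 180 and 233 CPM in the ZT8 libraries. The times did not overlap, which was so for 40.1% of all genes tested between times in members. Gad1 stood at 122 and 239 CPM at ZT20, against 95.4 and 188 CPM at ZT8. Slc32a1 stood at 133 and 162 CPM at ZT20, against 42.4 and 177 CPM at ZT8. The ranges of Gad1 and Slc32a1 overlapped between times. In ZT8 replicate 1, 24670 of 94349 member UMIs lay outside the nuclei with at least 30 glial marker UMIs described below. What those nuclei add to these levels was not tested. A single Slc17a6 UMI was found in 17 members. Dlx6os1, a noncoding RNA of the Dlx locus of forebrain GABAergic cells, which the rule did not use, had a UMI in 50% of members, against 46.5% of other GABAergic nuclei and 1.10% of oligodendrocytes.

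Members took a larger share of neurons in both ZT20 libraries than in either ZT8 library. They were 0.530% of kept neurons (95% Clopper-Pearson interval 0.329 to 0.810%) in ZT20 replicate 1 and 0.489% (0.295 to 0.763%) in ZT20 replicate 2. They were 0.148% (0.0482 to 0.346%) in ZT8 replicate 1 and 0.131% (0.0425 to 0.305%) in ZT8 replicate 2. The mean was 0.510 ± 0.0291% at ZT20 and 0.140 ± 0.0124% at ZT8 (SD, n = 2 libraries each), a ratio of 3.65. The exact two-sided permutation test gave p = 0.33, the smallest that 2 against 2 libraries allow. Among GABAergic nuclei, members were 2.43% (1.51 to 3.70%) and 2.18% (1.32 to 3.39%) at ZT20, against 1.14% (0.373 to 2.65%) and 1.00% (0.327 to 2.33%) at ZT8. The ratio of these shares was 2.15, again with an exact p of 0.33, and for both shares some intervals of single libraries overlapped between times. With each nucleus thinned to 5000 UMIs, 4 and 5 nuclei at ZT20 and 0 and 0 at ZT8 still met the rule. Intervals cover counting error only. Which part of the difference came from the placing of the punches or from the higher Sst in free RNA at ZT20 was not tested.

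**Figure D2:**
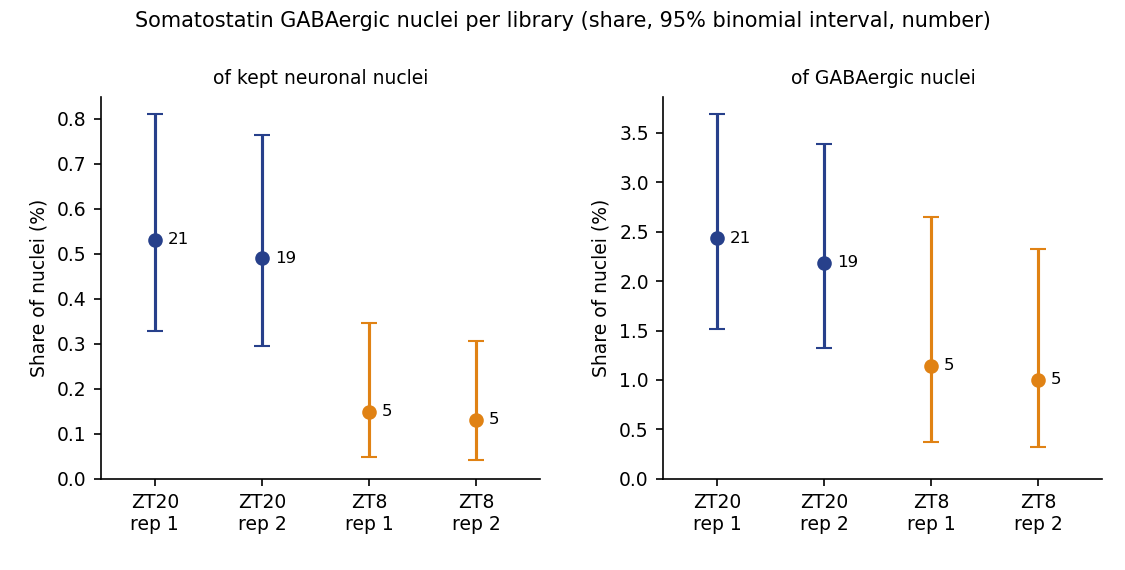
Share of members among kept neurons (left) and among GABAergic nuclei (right) in percent, per library, with 95% Clopper-Pearson intervals and the number of members beside each point. The ZT20 libraries lie above the ZT8 libraries in both panels, and some intervals of single libraries overlap between times in each.

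Members were not a uniform set. Sox6, a transcription factor of interneurons from the medial ganglionic eminence, and Meis2, a factor of other forebrain and hypothalamic GABAergic cells, divided them. At least 3 UMIs of Sox6 without Meis2 were found in 13 members (4 and 4 at ZT20, 3 and 2 at ZT8), and at least 3 of Meis2 without Sox6 in 10 (4 and 4 at ZT20, 1 and 1 at ZT8). Both were found in 1 member, at ZT8, and neither in 26 (13 and 11 at ZT20, 1 and 1 at ZT8). Most ZT20 members thus held neither factor, while 6 of 10 ZT8 members held Sox6 at that level. Lhx6, which marks interneurons from the medial ganglionic eminence and some hypothalamic GABAergic cells, had a UMI in 9 of 50 members, against 218 of 1985 other GABAergic nuclei. Otp, a factor of PVN and periventricular neuroendocrine cells, had a UMI in 7 members, all at ZT20. Otp was found in 40 of 1159 other GABAergic nuclei at ZT20 and 0 of 826 at ZT8. Sim1, which specifies PVN neurons, was found in 3 members.

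Several factors and receptors were each found in more than 25 members, though in different combinations. Tshz2, a zinc finger factor, had at least 3 UMIs in 35 members, the factor Foxp1 in 32, the neuregulin receptor Erbb4 in 31 and the thyroid hormone receptor Thrb in 31. The factor Zfhx3 had at least 3 UMIs in 30 members, the orphan receptor Esrrg in 28, and the growth hormone receptor Ghr, the mineralocorticoid receptor Nr3c2 and the kainate receptor subunit Grik1 in 26 each. Tshz2 and Thrb were together in 24 members, 68.6% of those with Tshz2 and 77.4% of those with Thrb. Erbb4 and Grik1 were together in 22, 71.0% of those with Erbb4 and 84.6% of those with Grik1. Ghr was with Nr3c2 in 13 members, with Grik1 in 12 and with Esrrg in 10. Genes found in so many members share nuclei in any case, and whether any pair went together more often was not tested. Several of these genes were as widespread outside the members: a Zfhx3 UMI was found in 74% of members, against 72.2% of other GABAergic nuclei, and an Erbb4 UMI in 74%, against 72.6%.

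**Figure D3:**
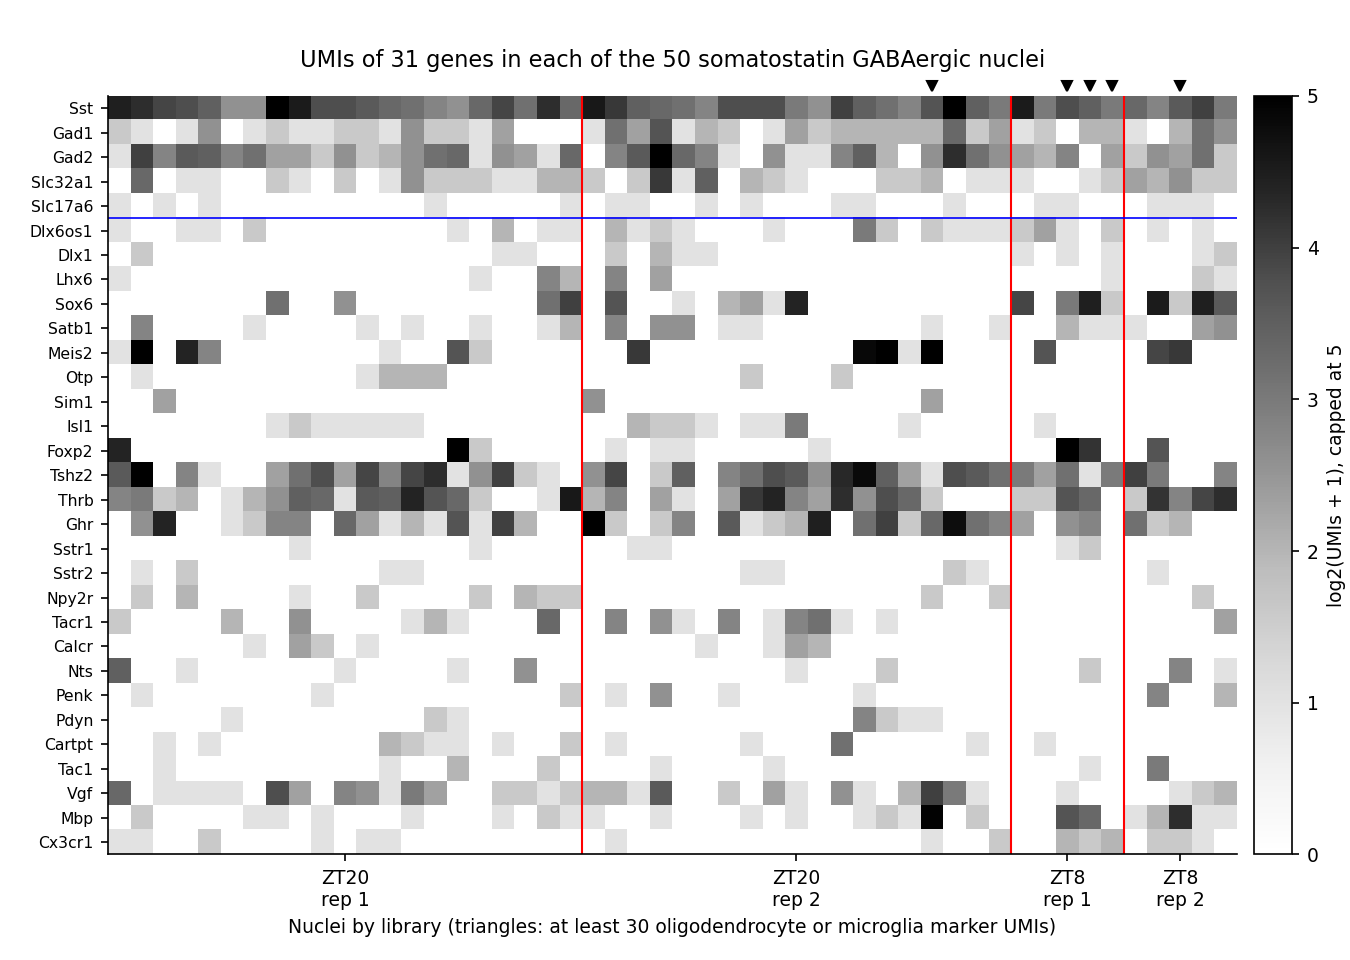
UMIs of 31 genes (rows) in each of the 50 members (columns, ordered by library), as log2(UMIs + 1) capped at 5, with the genes of the rule above the blue line. Sox6 and Meis2 mostly fall in different nuclei, Otp and Sim1 only in ZT20 nuclei, and 4 of the 5 nuclei under triangles hold 9 to 30 UMIs of the myelin gene Mbp.

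Other peptides were sparse. Cck was found in 25 members, but also in 26.6% of oligodendrocytes, and only 1 member had 3 UMIs of it. Cartpt was found in 13 members, Nts (neurotensin) in 10, Penk (proenkephalin) in 9, Tac1 (substance P precursor) in 8 and Pdyn (prodynorphin) in 7. At least 3 UMIs were reached in 3 members for Nts, 3 for Penk, 2 for Tac1, 2 for Cartpt and 1 for Pdyn. Cort, the paralogue that encodes cortistatin, had a UMI in 1 member. Vip, Ghrh and Grp were found in 0 of 50 members, which allows, at 3 nuclei of 50, a share of up to 6% of nuclei with a UMI. None of these peptides was found in more than 25 of the 50 members. Of the peptides the rule limits, Oxt had a UMI in 15 of 21 and 14 of 19 members at ZT20, against 1 of 5 and 0 of 5 at ZT8, and in 56.5 and 51.2% of oligodendrocytes at ZT20, against 7.62 and 12.8% at ZT8. Agrp had a UMI in 23 members, 46% of them, against 34.6% of other GABAergic nuclei and, at lower depth, 5.21% of oligodendrocytes. Kept neurons with at least 2 Slc17a6 UMIs and fewer than 3 GABA gene UMIs held Agrp in 42.7 and 41.5% at ZT20. At ZT8 they held it in 36.8 and 39.9%, so Agrp was about as widespread outside the members. Nos1, the nitric oxide synthase of one type of cortical somatostatin neuron, was found in 16% of members, against 15.7% of other GABAergic nuclei.

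Receptors for somatostatin itself were rare: Sstr2 had a UMI in 9 members, Sstr1 in 6, Sstr3 in 1, and Sstr4 and Sstr5 in 0. Sstr1 was found in 12% of members, against 2.62% of other GABAergic nuclei and 0.274% of oligodendrocytes, and after thinning in 4.08% of members against 1.10% of other GABAergic nuclei. Sstr2 was found in 9 of 50 members, against 139 of 1985 other GABAergic nuclei, and after thinning in 10.2% against 3.24%. Summed over libraries, Sstr2 was not called between the classes (log2 difference 1.00 ± 0.65, adjusted p = 1 by edgeR), and Sstr1 did not pass the filter on low counts. Ghr, through which growth hormone can act on these neurons, was found in 74% of members, against 52.8% of other GABAergic nuclei (51.0% against 37.7% after thinning). These shares pool the libraries, and members are mostly from ZT20. By library Ghr was higher in members in 2 libraries and lower in 2, with 328, 616, 159 and 144 CPM in members, against 171, 166, 169 and 149 CPM in other GABAergic nuclei (log2 difference 0.91 ± 0.29, adjusted p = 0.482 by edgeR). The neurokinin receptor Tacr1 was found in 34% of members, against 16.5% of other GABAergic nuclei, the neuropeptide Y receptor Npy2r in 22% against 9.47% and the calcitonin receptor Calcr in 16% against 5.89%. After thinning these shares were 20.4% against 10.4% for Tacr1, 7 of 49 nuclei against 88 of 1915 for Npy2r and 8.16% against 4.23% for Calcr. None was called between the classes (adjusted p = 0.852, 0.753 and 1.00 by edgeR), and Calcr had no UMI in ZT8 members. Oligodendrocytes held Tacr1 and Npy2r in 0.822% of nuclei each, at lower depth.

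Leiden clustering of the 50 members gave 6 sub-clusters, described here without a test since the same genes formed them. Sub-cluster 1 (17 nuclei, 7 and 6 at ZT20, 2 and 2 at ZT8) led with Hs3st4, a heparan sulfate sulfotransferase, at 812 CPM against 164 CPM in the other members, and with Col25a1. Sub-cluster 2 (10 nuclei, all at ZT20) led with Cntn5, a contactin of axons, at 6122 against 1398 CPM, and Cpne4. Sub-cluster 3 (8 nuclei, all at ZT20) led with Arhgap6, a GTPase-activating protein, at 1600 against 143 CPM, and with the potassium channel Kcnq5. Sub-cluster 5 (5 nuclei, all at ZT20) led with Tmem132c and Cdh13, and sub-cluster 6 (4 nuclei, 2 in ZT20 replicate 1 and 2 in ZT8 replicate 2) with Adarb2 at 3678 against 601 CPM and also held Sox6. Sub-clusters 2, 3 and 5 together held 23 ZT20 members and no ZT8 member, of 10 ZT8 members in all. Different kinds of nuclei and a change of expression within a kind cannot be told apart here.

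Sub-cluster 4 (6 nuclei, 1 and 1 at ZT20, 3 and 1 at ZT8) had among its leading genes the oligodendrocyte factor St18, at 573 CPM against 3.27 CPM in the other members, Tafa1 at 1146 against 94.7 CPM, and Gpc5. It held all 5 members with at least 30 UMIs of a list of 10 oligodendrocyte or 10 microglia markers, called glia-marked below. These were 1 nucleus of ZT20 replicate 2 (170 oligodendrocyte marker UMIs), 3 of ZT8 replicate 1 (138, 67 and 3 oligodendrocyte and 32, 5 and 35 microglia marker UMIs) and 1 of ZT8 replicate 2 (110 and 11). The other 45 members had 1 to 12 oligodendrocyte marker UMIs (median 3) and 0 to 6 microglia marker UMIs (median 2). Summed oligodendrocyte markers stood at 262 and 830 CPM in members at ZT20, against 2268 and 1575 CPM at ZT8. Microglia markers stood at 129 and 87.9 CPM at ZT20, against 806 and 189 CPM at ZT8, and astrocyte markers at 148 and 141 CPM, against 519 and 410 CPM. In members all 3 lists were higher in both ZT8 libraries. In other GABAergic nuclei oligodendrocyte markers stood at 715 and 679 CPM at ZT20, against 1228 and 1090 CPM at ZT8. Microglia markers there stood at 157 and 141 CPM at ZT20, against 114 and 137 CPM at ZT8. Astrocyte markers there stood at 273 and 290 CPM, against 221 and 288 CPM. Without the 5 nuclei, 21 and 18 members were left at ZT20 and 2 and 4 at ZT8.

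The series sets night against day, and 5 of 4260 genes tested (0.117%) were called between ZT20 and ZT8 in members by edgeR's quasi-likelihood test (adjusted p under 0.05), 1 higher (0.0235%) and 4 lower (0.0939%) at ZT20. Hs3st4, which sulfates heparan sulfate chains on the cell surface, rose. It stood at 458 and 528 CPM (124 and 150 UMIs) at ZT20, against 127 and 77.6 CPM (12 and 7 UMIs) at ZT8. The times did not overlap, and the log2 difference was 2.22 ± 0.35 (SE, adjusted p = 0.0485 by edgeR). A Hs3st4 UMI was found in 24 members at ZT20, where the libraries held 21 and 19, and in 4 at ZT8, where they held 5 and 5. Of its 293 UMIs in members, 215 were in 11 nuclei of sub-cluster 1, and 24.6% were in 1 nucleus. In all, 40.1% of genes tested had no overlap between times. Without glia-marked nuclei Hs3st4 stood at 458 and 602 CPM at ZT20, against 284 and 93.1 CPM at ZT8, and its log2 difference of 1.83 was not called (adjusted p = 0.410 by edgeR). With nuclei of high doublet score removed, which takes 1 member of each library, 3 of the 5 genes were still tested and edgeR called none of them (adjusted p = 0.178 for Hs3st4, 0.202 for Sox6 and 0.706 for Tafa1), while it called 2 others, Arhgap6 and Cacna2d1.

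Sox6 fell in members at ZT20. It stood at 133 and 144 CPM (36 and 41 UMIs) at ZT20, against 466 and 621 CPM (44 and 56 UMIs) at ZT8, and the times did not overlap. The log2 difference was -1.99 ± 0.28 (SE, adjusted p = 0.0485 by edgeR). A Sox6 UMI was found in 10 of 40 members at ZT20, against 8 of 10 at ZT8. Glia-marked nuclei held 32 of the 100 Sox6 UMIs at ZT8; without them Sox6 stood at 133 and 165 CPM at ZT20, against 568 and 718 CPM at ZT8 (log2 difference -2.14, adjusted p = 0.0648 by edgeR). The other GABAergic nuclei moved the same way, with Sox6 at 108 and 98.8 CPM at ZT20, against 240 and 276 CPM at ZT8 (log2 difference -1.32 ± 0.067, adjusted p = 5.42e-13 by edgeR). The difference between the changes of the classes was -0.54 ± 0.32 and was not called (adjusted p = 0.942 by edgeR).

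Tafa1, which encodes a secreted chemokine-like peptide, Nfia, a factor of glia and of some neurons, and Slc1a3, the glutamate transporter of astrocytes, fell. Tafa1 stood at 114 and 102 CPM at ZT20, against 880 and 676 CPM at ZT8 (log2 difference -2.87 ± 0.30, adjusted p = 0.00670 by edgeR), and 140 of its 144 ZT8 UMIs were in glia-marked nuclei. Nfia stood at 29.5 and 31.6 CPM at ZT20, against 382 and 166 CPM at ZT8 (-3.17 ± 0.47), with 48 of 51 ZT8 UMIs in those nuclei. Slc1a3 stood at 7.38 and 21.1 CPM at ZT20, against 201 and 133 CPM at ZT8 (-3.51 ± 0.54), with 29 of 31 ZT8 UMIs in them. In all 3 the ZT8 libraries were the higher ones, and most ZT8 transcripts came from nuclei that also carried glial markers. Without these nuclei Tafa1 stood at 114 and 92.3 CPM at ZT20, against 0 and 53.2 CPM at ZT8, so that its direction turned (log2 difference 1.37, adjusted p = 0.729 by edgeR). Nfia then stood at 29.5 and 4.01 CPM at ZT20, against 0 and 39.9 CPM at ZT8. In that fit edgeR called 0 of 3795 genes, while 270 had an unadjusted p under 0.05; with all members DESeq2 called Tafa1, Gpc5, Nfia, Sox6 and Slc1a3.

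**Figure D4:**
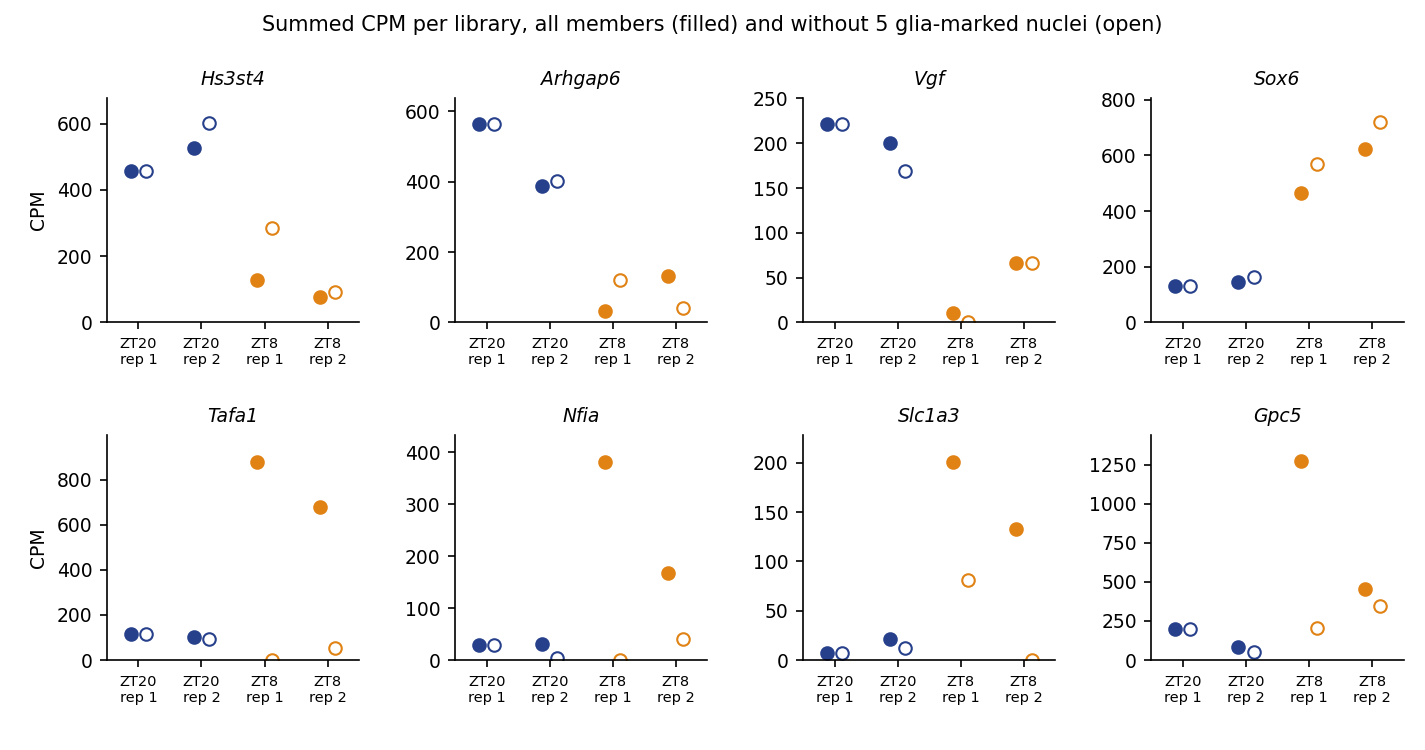
CPM summed per library over all members (filled) and over members without the 5 glia-marked nuclei (open) for 8 genes, with ZT20 in blue and ZT8 in orange. Sox6, Hs3st4 and Arhgap6 keep their separation of times, while the high ZT8 values of Tafa1, Nfia and Slc1a3 drop to 0 to 81.1 CPM.

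None of the lists of neuronal function held a called gene apart from Sox6, which is among both the regional transcription factors and the interneuron genes. The molecular clock turns on transcription through BMAL1 (Arntl) and CLOCK and shuts it off through PER, CRY and REV-ERB proteins. Of 24 clock genes 9 passed the filter on low counts in members, 0 were called, 1 had an unadjusted p under 0.05, and DESeq2 called 0. They had 3 log2 differences above 0 and 6 below, with a median of -0.30, beside 0.0005 over all genes tested. Arntl stood at 66.4 and 56.3 CPM at ZT20, against 21.2 and 22.2 CPM at ZT8, on 34 and 4 UMIs (log2 difference 1.44 ± 0.69, adjusted p = 0.558 by edgeR). Nr1d2, which encodes REV-ERB beta, stood at 51.6 and 70.3 CPM at ZT20, against 95.4 and 122 CPM at ZT8 (-0.85 ± 0.42, adjusted p = 0.569 by edgeR). Neither gene overlapped between times, and neither difference was detectable beyond the error at this depth. Further log2 differences were -0.18 for Clock, -0.82 for Cry2, -0.60 for Rora, 0.20 for Rorb, -0.30 for Tef and 0.42 for Csnk1d. In the other GABAergic nuclei, where 14.1% of genes tested were called (7.75% higher and 6.4% lower at ZT20), Arntl rose by 0.47 ± 0.096 (adjusted p = 0.000695) and Nr1d2 fell by 0.29 ± 0.072 (adjusted p = 0.00511, both by edgeR).

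Genes of peptide storage and release were mostly higher at ZT20 in members without passing the test: 10 of 14 granins and processing genes had log2 differences above 0, the median was 0.37 and 0 were called by edgeR or DESeq2 (2 at an unadjusted p under 0.05). Over all genes tested 2131 of 4260 lay above 0 and 383 had an unadjusted p under 0.05, which the counts of the lists are to be read against. Vgf, a granin-like precursor of secretory granules, stood at 221 and 200 CPM at ZT20, against 10.6 and 66.5 CPM at ZT8, and the times did not overlap (2.42 ± 0.52, adjusted p = 0.191 by edgeR). Scg2, which encodes secretogranin, stood at 502 and 348 CPM at ZT20, against 233 and 133 CPM at ZT8 (1.18 ± 0.36, adjusted p = 0.354 by edgeR). Of 10 chaperones of the endoplasmic reticulum that were tested, 8 lay above 0 with a median of 0.61 and 0 calls (3 unadjusted). Hspa5, which encodes the chaperone BiP, stood at 218 and 193 CPM at ZT20, against 74.2 and 144 CPM at ZT8 (0.89 ± 0.37, adjusted p = 0.502 by edgeR). In the other GABAergic nuclei 14 of 16 granins and processing genes lay above 0, and edgeR called 7 higher at ZT20. Of the chaperones tested there, 20 of 22 lay above 0 and 10 were called higher. Over all genes tested in those nuclei, 7746 of 15472 lay above 0 and 1199 were called higher.

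Of 38 ion channel genes tested, 26 lay above 0, the median was 0.17 and 0 were called (12 unadjusted, beside 383 of 4260 over all genes tested). The calcium channel subunit Cacna2d1 stood at 476 and 394 CPM at ZT20, against 159 and 55.5 CPM at ZT8 (1.97 ± 0.40, adjusted p = 0.152 by edgeR). Of 21 genes of GABA signalling, 13 lay above 0, the median was 0.08 and 0 were called (6 unadjusted). The receptor subunit Gabra2 stood at 494 and 651 CPM at ZT20, against 233 and 244 CPM at ZT8 (1.23 ± 0.30, adjusted p = 0.264 by edgeR). Slc6a11, a GABA transporter that astrocytes express strongly, went the other way with 29.5 and 24.6 CPM at ZT20, against 148 and 99.8 CPM at ZT8 (-2.21 ± 0.49, adjusted p = 0.204 by edgeR). Of its 14 and 9 UMIs at ZT8, 17 were in glia-marked nuclei. Without those nuclei it stood at 29.5 and 28.1 CPM at ZT20, against 81.1 and 53.2 CPM at ZT8 on 2 and 4 UMIs. Of 20 genes of cyclic AMP signalling to CREB, 11 lay above 0, with a median of 0.05 and 0 calls (3 unadjusted); DESeq2 called 0 in each of these lists. All 8 oligodendrocyte markers tested lay below 0, with a median of -1.97, 0 calls and 7 at an unadjusted p under 0.05. In the other GABAergic nuclei edgeR called all 10 oligodendrocyte markers lower at ZT20, with a median of -0.79. Over all genes tested there, 990 of 15472 were called lower.

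Compared with 1985 other GABAergic nuclei that held no Sst UMI (577 and 582 at ZT20, 385 and 441 at ZT8), edgeR with library as a block called 47 of 12771 genes tested (0.368%), 20 higher (0.157%) and 27 lower (0.211%) in members. Leaving out the genes of the rule, of which Sst was called, these were 46 of 12742 genes (0.361%), 19 higher (0.149%) and 27 lower (0.212%). This asks what goes with Sst among GABAergic nuclei of the same libraries. Members were deeper, with medians of 12327 and 13557 UMIs at ZT20 and 13260 and 15660 at ZT8, against 10266 and 10249 and 10523 and 11666 in the other nuclei. The 10 genes per direction below were chosen to be higher, or lower, in members in each of 4 libraries. Of all genes tested, 3.67% were higher and 10.2% lower in each, and nothing is read from this.

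Il1rapl2, an X-linked synaptic adhesion protein of the interleukin-1 receptor family (chrX:137570608-138846946), had 727, 1252, 869 and 577 CPM in members of ZT20 replicates 1 and 2 and ZT8 replicates 1 and 2, against 402, 392, 396 and 371 CPM in other GABAergic nuclei. The lowest member value exceeded the highest value of the other nuclei, and the log2 difference was 1.09 ± 0.17 (SE, adjusted p = 1.22e-06 by edgeR). Arid5b, a chromatin factor (chr10:68092520-68278740), averaged 334 ± 78.7 CPM in members and 173 ± 27.5 CPM in other GABAergic nuclei (SD, n = 4 libraries), a log2 difference of 0.94 ± 0.18 (adjusted p = 0.000216 by edgeR). Cntnap3, a contactin-associated adhesion protein, averaged 112 ± 50.5 CPM in members and 42.2 ± 4.33 CPM in other GABAergic nuclei, a log2 difference of 1.32 ± 0.24 (adjusted p = 0.000166 by edgeR). Arid5b and Cntnap3 did not overlap between the classes.

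Robo2, a Slit receptor of axon guidance, averaged 572 ± 323 CPM in members and 278 ± 25.5 CPM in other GABAergic nuclei, and its lowest member value of 266 CPM lay within their range (log2 difference 0.93 ± 0.17, adjusted p = 0.000257 by edgeR). Thrb, a thyroid hormone receptor, had 498, 390, 265 and 632 CPM in members, against 235, 272, 232 and 198 CPM in other GABAergic nuclei of the same libraries (log2 difference 0.88 ± 0.17, adjusted p = 0.000706 by edgeR). Only the ZT8 replicate 1 value of Thrb reached into the range of the other nuclei. The other genes that were higher were Masp1, a protease of the lectin complement pathway (2.63 ± 0.59 on the log2 scale, 18 UMIs in members in all), Mpped1 (1.34), Gab3 (1.20), Lypd6, a modulator of nicotinic receptors (1.15), and the potassium channel subunit Kcnmb2 (0.91). Sox6 was also higher in members, with 133, 144, 466 and 621 CPM against 108, 98.8, 240 and 276 CPM in other GABAergic nuclei (0.74 ± 0.18, adjusted p = 0.0145 by edgeR).

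Genes that were lower in members were mostly nearly silent there. Prdm16, a zinc finger regulator of cell fate, had 3.69, 3.52, 10.6 and 0 CPM in members, against 57.3, 61.7, 50.9 and 63.1 CPM in other GABAergic nuclei (log2 difference -3.83 ± 0.55, adjusted p = 2.51e-08 by edgeR). These are 3 Prdm16 UMIs over all members, and the ratio of summed CPM, members over others, was 0.0691 (95% counting interval 0.0142 to 0.202). Otx2os1, a noncoding RNA beside the factor Otx2, had 0, 0, 10.6 and 0 CPM in members, against 41.1, 41.4, 75.1 and 59.0 CPM in other GABAergic nuclei, a ratio on 1 member UMI of 0.0258 (0.000654 to 0.144). The receptor tyrosine kinase-like Ror1 had 3 UMIs in members and a ratio of 0.117 (0.0242 to 0.344). These intervals cover counting error only, not the spread between nuclei or libraries. The cation channel Trpc6 (-2.28), Kitl, the ligand of the receptor Kit (-2.23), Dpf3 (-2.22), Synpo2 (-2.21), Sel1l3 (-1.81), Fbxl7 (-1.81) and Spag16 (-1.71) were lower too. Prlr, the prolactin receptor, had 33.2, 106, 53.0 and 22.2 CPM in members, against 148, 168, 91.7 and 105 CPM in other GABAergic nuclei (-1.25 ± 0.25, adjusted p = 0.000675 by edgeR). The factor Pbx3 was lower as well, at 111 ± 47.9 CPM in members and 215 ± 33.97 CPM in other GABAergic nuclei (-0.98 ± 0.20, adjusted p = 0.0022 by edgeR).

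**Figure D5:**
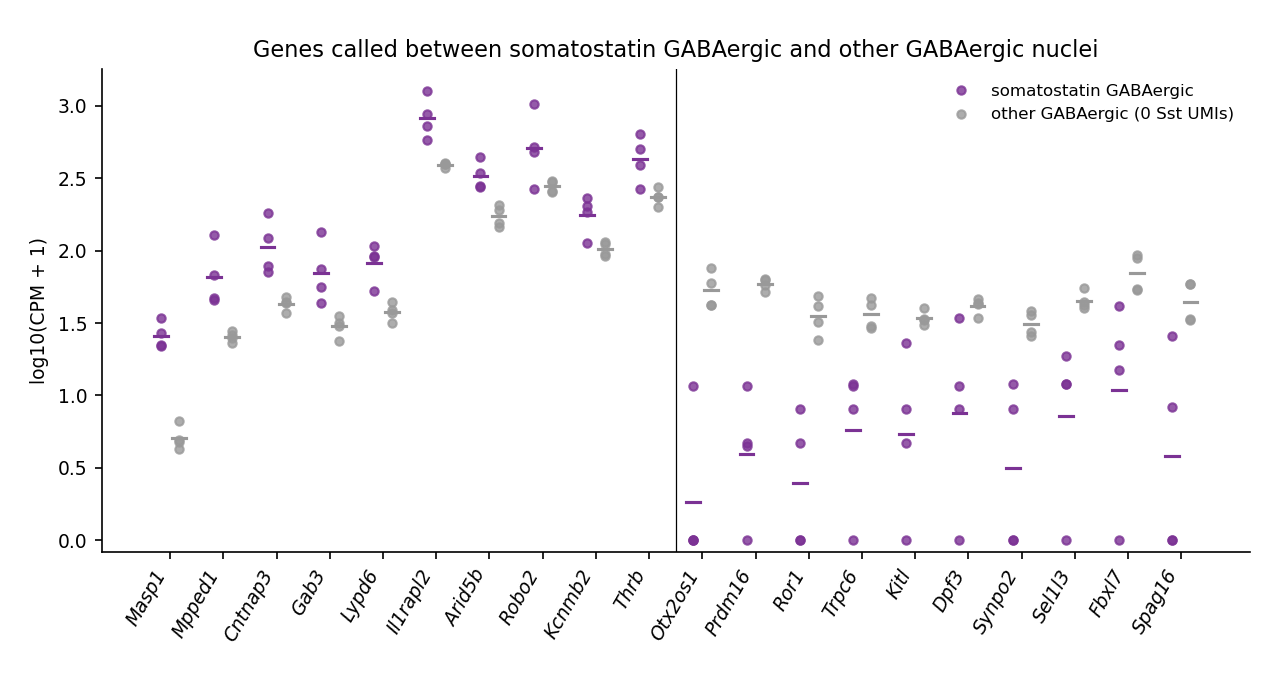
CPM as log10(CPM + 1) of the 10 genes that were higher (left) and the 10 that were lower (right) in somatostatin GABAergic nuclei (purple) than in other GABAergic nuclei without Sst (grey), a point per library and a bar at the mean of 4. Il1rapl2 lies at 577 to 1252 CPM in members and 371 to 402 CPM in the others, and several genes on the right are at 0 in members of 1 or more libraries.

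By lists, regional transcription factors had 2 of 42 higher (Sox6 and Tshz2) and 1 lower (Pbx3). Receptors of the somatostatin and pituitary axis had 1 of 13 higher (Thrb) and 1 lower (Prlr). Of 23 clock genes, 16 co-transmitted peptides, 24 genes of GABA signalling, 44 ion channels and 17 feeding and stress receptors, 0 were called by edgeR or DESeq2, with 2, 2, 2, 8 and 2 at an unadjusted p under 0.05, beside 670 of 12771 over all genes tested. Medians of these 5 lists lay between -0.07 and 0.03 on the log2 scale, beside -0.05 over all genes tested. Of 9 thalamic markers tested 1, Synpo2, was lower. Among the receptors and peptides Npy2r had a log2 difference of 1.15 ± 0.49 (adjusted p = 0.753) and the peptide Nts of 0.94 ± 0.39 (adjusted p = 0.665, both by edgeR). Microglia markers lay above 0 in 7 of 7 tested (median 0.83, 0 called, 2 unadjusted) and oligodendrocyte markers in 7 of 10 (median 0.16, 0 called, 0 unadjusted); without glia-marked nuclei edgeR called 55 genes, 28 of them among the 47. The calls between classes rest on an error shared by sums of 5 to 21 and of 385 to 582 nuclei: with as many other nuclei as members, nearest in UMIs, edgeR called only Sst of 4007 genes (198 at an unadjusted p under 0.05), and limma voom with a variance for each class called only Sst. DESeq2 called 14 genes, 11 higher (with Sst) and 3 lower in members. The higher ones included Il1rapl2, Arid5b, Thrb, Robo2, Sox6, Tshz2 and Nell1. The lower ones were Ralyl, Unc5d and Sdk1, so DESeq2 called none of the lower genes named above. Nor did it call Masp1, Mpped1, Cntnap3, Gab3, Lypd6 or Kcnmb2.

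Whether the change between times differed between members and other GABAergic nuclei was tested in the same libraries, and edgeR called 46 of 13754 genes (0.334%), 24 with a difference above 0 (0.174%) and 22 below (0.16%). Arhgap6, a leading gene of sub-cluster 3, stood at 564 and 387 CPM (153 and 110 UMIs) in members at ZT20, against 31.8 and 133 CPM (3 and 12 UMIs) at ZT8. Of its 278 UMIs in members, 189 were in 7 nuclei of sub-cluster 3, which held no ZT8 nucleus, and 20.1% were in 1 nucleus. Other GABAergic nuclei held 243 and 258 CPM at ZT20, against 216 and 140 CPM at ZT8. The times did not overlap in either class, and the difference of the changes was 2.11 on the log2 scale (adjusted p = 0.000196 by edgeR). Within members alone the change of Arhgap6 was not called (log2 difference 2.51 ± 0.47, adjusted p = 0.107 by edgeR). DESeq2 called 2 differences, Tafa1 and Nfia. With as many other nuclei, nearest in UMIs, edgeR made 0 calls, and voom made 0, with 296 and 986 genes at an unadjusted p under 0.05.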

How the data were processed

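The authors deposited, for each library, UMI counts by gene and barcode, made with Cell Ranger 7.0.0 per the file headers; the submitters' processing notes also name STAR 2.6 and mm10. Nothing was normalized before deposit. Members and gene lists were chosen with earlier results of these data known. Counts were summed per library over members and over other GABAergic nuclei. They were tested with edgeR 4.0.16 (R 4.3.3, filterByExpr, TMM, robust quasi-likelihood, two-sided, Benjamini-Hochberg over all genes tested), with library as a block between classes. The main edgeR fits (times in members, classes and difference of changes) were tested on simulated data, and the other fits were not. The simulated counts were sums per library with no single nuclei in them, so they cannot show how outlying or glia-marked nuclei weigh on the calls. DESeq2 1.42.0 and limma 3.58.1 were alternatives. CPM are over raw totals. Doublets were scored with Scrublet in scanpy 1.11.5 (Python 3.11.15) and the top 0.8% per 1000 barcodes removed only as an alternative, which takes 4 members. The limit of 30 glial marker UMIs, the nearest-depth comparison and the voom fit were chosen after seeing the data. Sub-clusters used leidenalg 0.10.2 on 1000 variable genes and 10 components. Named genes were called genes with the smallest p and no overlap (times) or the largest log2 difference (classes), up to 10 per direction. Those of the classes also had a mean of at least 20 CPM in the higher class and the same direction in all 4 libraries. All tested clock genes and up to 5 per list were named too. Others were picked after seeing their values. Coordinates are from GENCODE M21. Some genes that the rule names are not reported here.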

Additional observations from a re-analysis of the deposited data

Results flagged for a closer look

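The change between ZT20 and ZT8 differed between members and other GABAergic nuclei, by edgeR's test of the difference itself, in 46 of 13754 genes (0.334%), 24 higher (0.174%) and 22 lower (0.16%). The median over all genes tested was 0.12 on the log2 scale. Both classes come from the same libraries. DESeq2 called 2 of these genes, Tafa1 and Nfia, and limma voom with a variance for each class called 0 (986 at an unadjusted p under 0.05). Leaving out ZT20 replicate 2 left 0 calls by edgeR.

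Among differences above 0, Hs3st4 differed by 2.16, with 214 and 262 CPM at ZT20 against 207 and 206 CPM at ZT8 in the other nuclei. Arhgap6 differed by 2.11, with 564 and 387 CPM at ZT20 against 31.8 and 133 CPM at ZT8 in members. Sub-cluster 3, all at ZT20, held 189 of the 278 Arhgap6 UMIs in members. Vgf differed by 2.56, and stood at 108 and 99.0 CPM at ZT20 against 97.7 and 107 CPM at ZT8 in the other nuclei. The teneurin Tenm1 differed by 1.61, with 1107 and 1203 CPM at ZT20 against 424 and 388 CPM at ZT8 in members. Adam23, a synaptic membrane protein, differed by 1.60, with 509 and 310 against 170 and 188 CPM in members at ZT20 and ZT8.

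Differences below 0 were those of Tafa1 (-3.00), Nfia (-3.08), Slc1a3 (-3.39), Gpc5 (-2.44), the neuropeptide S receptor Npsr1 (-6.78) and the sulfotransferase Chst9 (-5.35). Gpc5 stood at 199 and 80.9 CPM at ZT20 against 1272 and 455 CPM at ZT8 in members, Npsr1 at 0 and 7.03 against 212 and 11.1 CPM, and Chst9 at 0 and 10.6 against 53.0 and 200 CPM. The 18 Chst9 UMIs of ZT8 replicate 2 were in 1 nucleus. Npsr1 had 2 and Chst9 3 UMIs in members at ZT20, so their fitted values depend on the prior count. The ratios of summed CPM, ZT20 over ZT8, were 0.0316 (95% counting interval 0.0036 to 0.129) for Npsr1 and 0.0433 (0.00833 to 0.143) for Chst9. These intervals treat each UMI as independent and leave out the spread between nuclei and between libraries. Npsr1 was found in 3 members at ZT8, and 20 of its ZT8 UMIs were in glia-marked nuclei. Without glia-marked nuclei edgeR called 15 genes, among them Hs3st4 (1.93, adjusted p = 0.0475), Arhgap6 (2.64, adjusted p = 0.0147) and Chst9 (-5.54, adjusted p = 5.63e-06), and not the other 8 of the genes named here. Chst9 then had 0 and 18 UMIs in members at ZT8, all in 1 nucleus, against 0 and 3 at ZT20. Its times overlapped, and its call rests on that nucleus.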

How the results depend on the processing

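Members are 5 nuclei in each ZT8 library, so single nuclei weigh on every comparison of times. Genes called between ZT20 and ZT8 in members, 5 in the report, became 100 without a filter on low counts, 29 at 3 or more Sst UMIs (2 of the 5 among them) and 8 at 10 or more (4 of the 5), 8 with at most 1% mitochondrial UMIs, 8 with at least 5000 UMIs, 2 without high doublet scores (0 of the 5; Arhgap6 and Cacna2d1), 0 without glia-marked nuclei, 0 after thinning to 5000 UMIs (104 unadjusted) and 21 to 181 with a replicate left out (23 and 21 without ZT20 replicate 1 and 2, 67 and 181 without ZT8 replicate 1 and 2). The difference of Tafa1 reversed to 1.37 without glia-marked nuclei. With a replicate block 2 genes were called, but same-numbered libraries deviated with r = -0.0327 across 4260 genes and the numbers do not pair them. Genes called between classes, 47 with Sst, became 14 with DESeq2, 26 at 10 or more Sst UMIs and 6 with no library block. They became 13 after thinning, 1 against as many others nearest in UMIs and 1 with voom. With a replicate left out they became 19 to 81 (28 and 19 at ZT20, 81 and 34 at ZT8, in the same order). Differences of change, 46, became 2 with DESeq2, 30 without high doublet scores, 15 without glia-marked nuclei, 0 against nearest others (296 unadjusted), 0 with voom and 0 to 148 with a replicate left out (4 and 0 at ZT20, 30 and 148 at ZT8). That of Tafa1 reversed to 1.20 without glia-marked nuclei. ZT20 minus ZT8 in percent of kept neurons, 0.370, became 0.752 at 3 and 0.223 at 10 Sst UMIs, 0.435 without high doublet scores, 0.454 without glia-marked nuclei and 0.130 after thinning. In percent of GABAergic nuclei, 1.23 became 2.51, 0.783, 1.59, 1.68 and 0.747. Tests within Sox6 or Meis2 sub-groups were not run, since none has 15 nuclei in every library.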
